A study of Mus musculus with 9 samples.

Results

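The 9 genes described here encode the DNA methyltransferases Dnmt1, Dnmt3a and Dnmt3b, the methyltransferase cofactors Dnmt3l and Uhrf1, the methylcytosine dioxygenases Tet1, Tet2 and Tet3, and the DNA glycosylase Tdg. They were chosen by name as the enzymes that write, maintain and remove methylation at CpG sites, by a rule that uses no measured value but was set with earlier results of these data known. All 9 were found by gene ID among the 20287 genes listed in at least 1 library, and all 9 passed the filter on low values, a mean of at least 0.5 FPKM (fragments scaled by gene length and library size) over the libraries. RNA was sequenced from E14, a line of mouse embryonic stem cells from strain 129, with either the wild type genotype (WT) or the genotype Hbxip-/- (here KO). Hbxip, now named Lamtor5, encodes a subunit of Ragulator, the complex that anchors the Rag GTPases for mTORC1 activation at the lysosome. Both genotypes were sampled in pluripotent culture, on day 4 after 96 h without the cytokine LIF, and as embryoid bodies, with 1 WT and 2 KO libraries in each of the 3 conditions. Whether KO libraries 1 and 2 are separate clones or cultures is not given in the labels, nor is the age of the embryoid bodies or how the mutation was made. The p-values therefore measure only the spread between these libraries, and each WT library was taken to vary like the KO pairs.

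DNMT3A and DNMT3B place methyl groups on unmethylated CpG sites, and DNMT3L, which has no catalytic activity, binds and stimulates them. DNMT1 copies methylation to the new strand after replication, guided there by UHRF1, which recognises hemimethylated CpG. TET enzymes oxidise 5-methylcytosine, using 2-oxoglutarate as a cosubstrate, and TDG excises the further oxidised forms so that base excision repair can restore cytosine. Tet1 and Tet2 are known as dioxygenase genes of mouse embryonic stem cells. Dnmt3a and Dnmt3b are known to rise when such cells move toward the epiblast.

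Library totals ran from 10147301 to 10863866 rounded counts, with 5.42% to 6.16% of the counts in the top 10 genes. Lamtor5 was at 40.7, 38.5 and 41.8 FPKM in the WT libraries of pluripotent culture, LIF withdrawal and embryoid bodies. The KO values were 31.0 and 29.1 FPKM, 16.2 and 15.5 FPKM, and 23.0 and 18.3 FPKM in the same order. Since all 6 KO libraries still held reads of the gene, the genotype rests on the labels and not on these levels. All 10 pluripotency markers (Pou5f1, Sox2, Nanog and others) were above 1 FPKM in every group, also after LIF withdrawal and in embryoid bodies, and their sum lay between 3702 and 4986 FPKM. In such bulk samples, fewer cells of a type and less RNA per cell cannot be told apart.

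The regions upstream of the 3 de novo methylation genes are shown because these genes differed most in level among the libraries and differ in CpG content, the substrate of the enzymes themselves. Each line gives the 250 bases before the first listed transcription start, by coordinate, 5′ to 3′ on the gene's strand, from RefSeq (GRCm38.p6), with CpG in capitals. The Dnmt3a window lies at chr12:3806730-3806979, the Dnmt3b window at chr2:153649199-153649448 and the Dnmt3l window at chr10:78042037-78042286, all on the plus strand.
Dnmt3a: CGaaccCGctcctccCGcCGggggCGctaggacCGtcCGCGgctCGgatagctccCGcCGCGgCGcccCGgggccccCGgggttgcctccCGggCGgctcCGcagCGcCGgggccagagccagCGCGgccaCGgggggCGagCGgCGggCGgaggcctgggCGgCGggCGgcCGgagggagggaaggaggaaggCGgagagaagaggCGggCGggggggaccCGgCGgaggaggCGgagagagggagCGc
Dnmt3b: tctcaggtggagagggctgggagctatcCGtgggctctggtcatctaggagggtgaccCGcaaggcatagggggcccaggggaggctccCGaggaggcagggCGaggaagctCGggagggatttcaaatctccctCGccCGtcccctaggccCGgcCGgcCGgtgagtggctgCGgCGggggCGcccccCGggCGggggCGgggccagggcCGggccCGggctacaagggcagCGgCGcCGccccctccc
Dnmt3l: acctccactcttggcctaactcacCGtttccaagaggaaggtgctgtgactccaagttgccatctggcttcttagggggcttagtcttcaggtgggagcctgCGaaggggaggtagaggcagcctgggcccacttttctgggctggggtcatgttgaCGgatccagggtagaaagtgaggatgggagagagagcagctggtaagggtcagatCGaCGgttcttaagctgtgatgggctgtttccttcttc
The Dnmt3a window holds 38 CpG and the Dnmt3b window 21, against 5 in the Dnmt3l window and a median of 6 over 32851 windows of this length. Dnmt3a thus lay at the 98.3 percentile of CpG count, Dnmt3b at 84.4 and Dnmt3l at 47.0. RefSeq lists 3 starts each for Dnmt3a and Dnmt3l, and the other windows of Dnmt3l held 4 and 3 CpG, those of Dnmt3a 40 and 15. The Tet2 window held 51 CpG, at the 99.9 percentile. The letters TTTCGCGC, a form of the E2F site, were found on either strand in 1 of the windows of Dnmt1 and in 1 of those of Uhrf1, and in 0.256% of all windows. The E-box CACGTG was in 1 window each of Dnmt3a, Dnmt3l and Tdg and in 6.02% of all windows. The windows of Dnmt3a and Dnmt3l printed above held none. Some genes have more than 1 window, so this count of genes cannot be set directly against a share of windows. The letters CTTTGAT were in none of the members' windows and in 3.21% of all. Which start was used cannot be read from gene-level values.

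**Figure D1:**
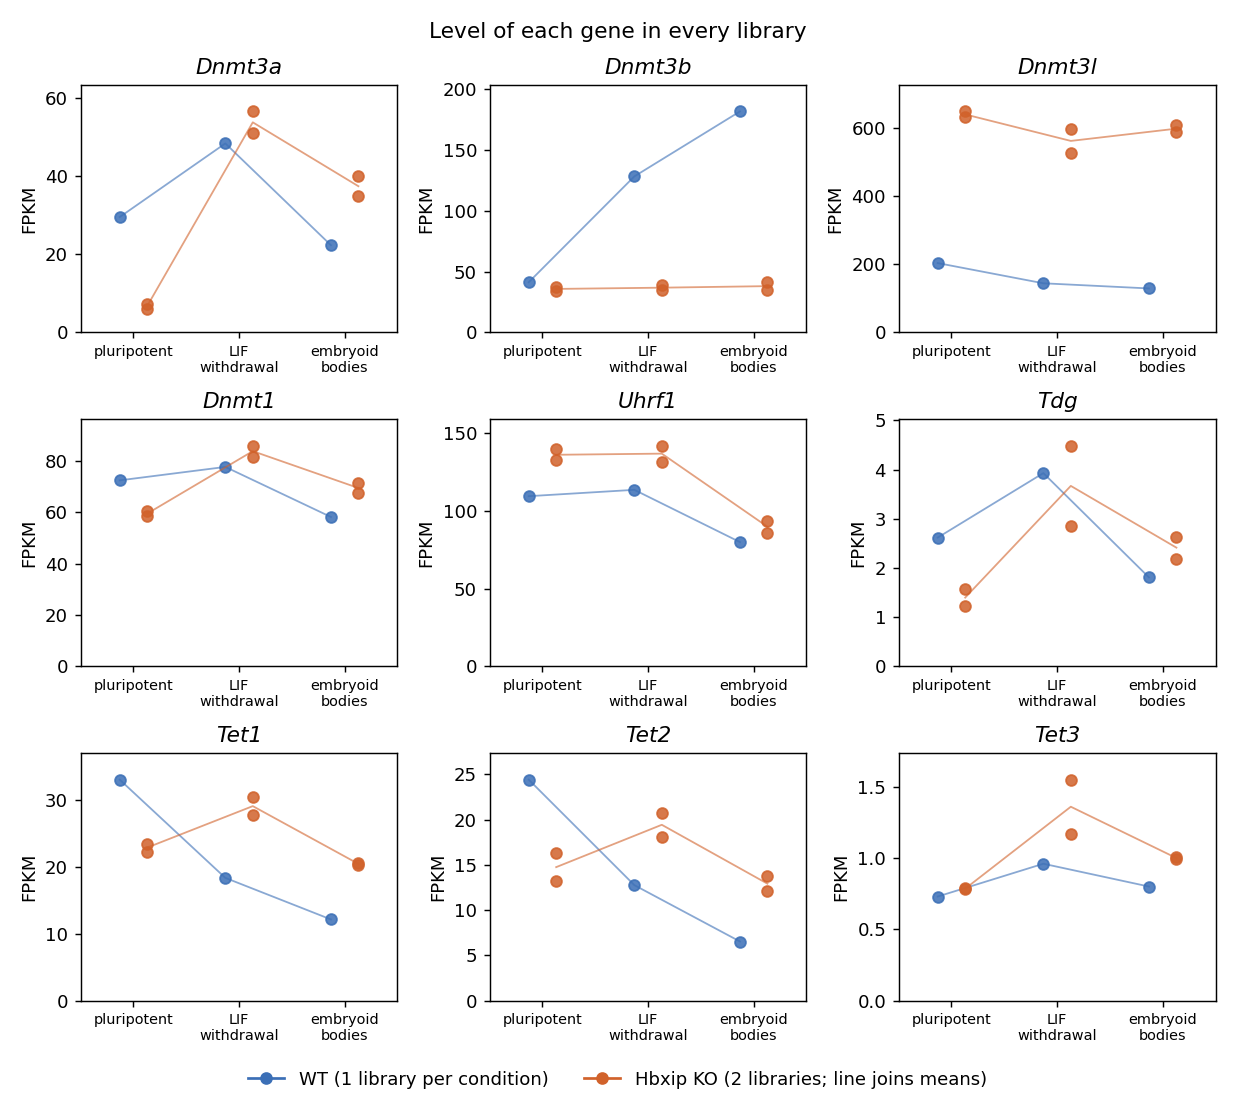
Level of each of the 9 genes in FPKM (vertical axes, each from 0) in the 3 conditions (horizontal axes). Each point is 1 library, blue for WT and orange for KO, and lines join the WT values or the KO means. Dnmt3l stood between 527 and 648 FPKM in the KO libraries and between 129 and 203 FPKM in WT, Dnmt3b was above 100 FPKM only in WT after LIF withdrawal and in WT embryoid bodies, and Dnmt3a was below 10 FPKM only in the KO pluripotent libraries.

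The first comparison was that of KO with WT within each condition, which asks how expression differs between the labelled genotypes in that culture. The 3 genes of de novo methylation each differed in another set of conditions. Dnmt3a was lower in KO in pluripotent culture only among the 3 cultures, and higher in KO in embryoid bodies. Dnmt3b was lower in KO after LIF withdrawal and in embryoid bodies, and Dnmt3l was higher in KO in every culture. In pluripotent culture 5 of the 9 genes passed the threshold of an adjusted p below 0.05, 2 higher and 3 lower in KO, against 51.8% of the 13990 genes tested (25.5% higher and 26.3% lower). After LIF withdrawal 6 passed, 5 higher and 1 lower, against 35.8% of all genes (18.4% higher and 17.4% lower). In embryoid bodies 6 passed, 5 higher and 1 lower, against 37.2% (19.4% higher and 17.7% lower). The median log2 fold change of the 9 genes was -0.17, 0.35 and 0.41 in the 3 cultures, beside -0.01, 0.00 and 0.00 over all genes. Tests are edgeR's quasi-likelihood tests, p-values were adjusted over all genes tested by the Benjamini-Hochberg method, changes are log2 fold changes, and values after ± are standard errors.

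Dnmt3a encodes the de novo enzyme that also acts widely in later embryos and in germ cells. In pluripotent culture it was at 29.5 FPKM in the WT library and at 6.07 and 7.38 FPKM in the KO pair. After LIF withdrawal it was at 48.4 FPKM in the WT library and at 51.0 and 56.5 FPKM in the KO pair. In embryoid bodies it measured 22.3 FPKM in the WT library and 34.8 and 40.0 FPKM in the KO pair. Both KO pluripotent libraries thus lay below every other library, while the KO libraries of the other conditions lay above their WT library. In pluripotent culture Dnmt3a fell by 1.98 ± 0.11 in KO (adjusted p = 7.94e-08), which is 3.95-fold lower. After LIF withdrawal the difference was 0.21 ± 0.11 (adjusted p = 0.148) and in embryoid bodies Dnmt3a rose by 0.74 ± 0.11 (adjusted p = 0.000315). Among the 6 group means, KO and WT after LIF withdrawal did not differ by more than the widest KO pair, and the KO pluripotent group was lowest, 1.74 log2 units below the next group. The deposited gene length of Dnmt3a, which differs between libraries for genes with several transcripts, was 9171 and 9162 bases in the KO pluripotent libraries. It was between 8948 and 9002 bases in the other 7 libraries. The tables combine 3 transcripts for the gene, and their levels were not analysed here.

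Dnmt3b encodes the de novo enzyme of the early epiblast. In the WT libraries it was at 41.3 FPKM in pluripotent culture, 128 FPKM after LIF withdrawal and 182 FPKM in embryoid bodies. Its KO libraries measured 37.3 and 34.3 FPKM, 38.7 and 34.9 FPKM, and at 34.9 and 41.3 FPKM in the same order. The 6 KO libraries thus covered a narrow range that included none of the WT values after LIF withdrawal or in embryoid bodies. KO minus WT was -0.11 ± 0.12 (adjusted p = 0.454) in pluripotent culture. Dnmt3b fell by 1.75 ± 0.11 in KO (adjusted p = 3.18e-07) after LIF withdrawal and by 2.28 ± 0.11 (adjusted p = 4.58e-08) in embryoid bodies, which is 3.37-fold and 4.86-fold lower. By group mean, WT embryoid bodies and then WT after LIF withdrawal stood above the other 4 groups, and no neighbouring pair of those 4 differed by more than the widest KO pair.

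Dnmt3l encodes the catalytically inactive partner that stimulates both enzymes. In the WT libraries it was at 203 FPKM in pluripotent culture, 144 FPKM after LIF withdrawal and 129 FPKM in embryoid bodies. KO levels were 648 and 630 FPKM, 596 and 527 FPKM, and at 609 and 586 FPKM. No KO library overlapped a WT library, and the gene lay between the 96.9 and the 99.3 percentile of the genes listed in a library. Dnmt3l rose in KO by 1.78 ± 0.11 (adjusted p = 1.25e-07) in pluripotent culture, by 2.02 ± 0.11 (adjusted p = 1.06e-07) after LIF withdrawal and by 2.21 ± 0.11 (adjusted p = 6.2e-08) in embryoid bodies, or 3.43-fold, 4.06-fold and 4.63-fold. The 3 KO group means did not differ from their neighbours by more than the widest KO pair, and the lowest of them stood 1.46 log2 units above the highest WT level.

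Dnmt3l overlaps Aire, which lies on the opposite strand and encodes the autoimmune regulator of thymic self-antigen expression. Whether the counting used strand is not given in the sources used here, so reads of the overlap cannot be assigned to either gene. Aire stood at 20.9, 7.68 and 4.61 FPKM in the WT libraries of the 3 conditions, in the order of pluripotent culture, LIF withdrawal and embryoid bodies. The KO pairs stood at 17.8 and 33.7 FPKM, at 28.8 and 37.0 FPKM, and at 30.1 and 33.6 FPKM. Aire rose in KO by 2.15 ± 0.30 (adjusted p = 0.000147) after LIF withdrawal and by 2.82 ± 0.33 (adjusted p = 4.27e-05) in embryoid bodies. In pluripotent culture its difference was 0.41 ± 0.26 (adjusted p = 0.211), and it was 0.78 (adjusted p = 0.00319) without KO pluripotent replicate 1 and -0.08 (adjusted p = 0.728) without KO pluripotent replicate 2. The level of Aire was far below that of Dnmt3l in every library, and its part in the Dnmt3l values was not tested.

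Of the maintenance genes, Dnmt1, the enzyme that copies methylation, was at 72.4 FPKM in the WT library and 60.5 and 58.3 FPKM in the KO pair of pluripotent culture. After LIF withdrawal it was at 77.6 FPKM in the WT library and 85.9 and 81.5 FPKM in the KO pair. In embryoid bodies it measured 58.1 FPKM in the WT library and 67.5 and 71.3 FPKM in the KO pair. The KO pair thus lay below WT in the first culture and above it in the others. In embryoid bodies Dnmt1 rose by 0.25 ± 0.09 (adjusted p = 0.0417), a call that was lost without KO embryoid body replicate 1 (0.29, adjusted p = 0.0689) or 2 (0.21, adjusted p = 0.18), with DESeq2 (adjusted p = 0.0912) and with upper-quartile scaling (0.20, adjusted p = 0.0646). After LIF withdrawal the difference was 0.17 ± 0.09 (adjusted p = 0.152), and in pluripotent culture it was -0.17 ± 0.09 (adjusted p = 0.128). The pluripotent difference passed the threshold when libraries were scaled by their totals alone, at -0.29 (adjusted p = 0.00633), a scaling that puts the median of all genes at -0.13. It also passed with upper-quartile factors (-0.28), with a minimum of 2 FPKM (-0.22) and with limma on log2(FPKM + 1) (-0.28).

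Uhrf1, which brings DNMT1 to hemimethylated sites, was at 110 FPKM in the WT library and 140 and 133 FPKM in the KO pair of pluripotent culture. After LIF withdrawal it was at 114 FPKM in the WT library and 142 and 132 FPKM in the KO pair. In embryoid bodies it measured 80.0 FPKM in the WT library and 93.9 and 86.0 FPKM in the KO pair. Each KO pair lay above the WT library of its condition. Uhrf1 rose by 0.42 ± 0.10 (adjusted p = 0.00302) in pluripotent culture and by 0.35 ± 0.10 (adjusted p = 0.0145) after LIF withdrawal, and the difference was 0.17 ± 0.10 (adjusted p = 0.188) in embryoid bodies. After LIF withdrawal the call was lost without KO LIF withdrawal replicate 1 (0.27, adjusted p = 0.0694) and with limma on log2(FPKM + 1) (0.27, adjusted p = 0.0521). The ratio of Uhrf1 to Dnmt1 FPKM was 1.51 in WT and 2.31 and 2.28 in KO in pluripotent culture. It was 1.47 in WT and 1.66 and 1.62 in KO after LIF withdrawal, and 1.38 in WT and 1.39 and 1.21 in KO in embryoid bodies, so the KO pair enclosed the WT value only there.

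Among the demethylation genes, Tet1 and Tet2, the dioxygenases of pluripotent cells, were lower in KO than in WT in pluripotent culture and higher in the other cultures. Tet1 stood at 33.0, 18.3 and 12.1 FPKM in the WT libraries of the 3 conditions, in the order of pluripotent culture, LIF withdrawal and embryoid bodies. The KO values were 22.2 and 23.4 FPKM, 30.4 and 27.7 FPKM, and at 20.2 and 20.6 FPKM. The highest and the 2 lowest group means were all of WT. Tet1 fell in KO by 0.41 ± 0.09 (adjusted p = 0.00182) in pluripotent culture and rose by 0.73 ± 0.09 (adjusted p = 6.91e-05) after LIF withdrawal and by 0.75 ± 0.09 (adjusted p = 7.05e-05) in embryoid bodies. Its counts were not whole numbers in any of the 9 libraries, as where reads shared with another locus are split.

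Tet2 stood at 24.4, 12.8 and 6.53 FPKM in the WT libraries of the 3 conditions, in the order of pluripotent culture, LIF withdrawal and embryoid bodies. Its KO libraries measured 13.2 and 16.3 FPKM, 18.1 and 20.8 FPKM, and at 13.7 and 12.1 FPKM. As for Tet1, both KO libraries lay below WT in pluripotent culture and above WT in the other conditions. Tet2 fell in KO by 0.61 ± 0.12 (adjusted p = 0.000907) in pluripotent culture. It rose by 0.67 ± 0.12 (adjusted p = 0.00115) after LIF withdrawal and by 0.98 ± 0.13 (adjusted p = 0.000122) in embryoid bodies.

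Tet3, the dioxygenase best known from oocytes and later development, was the lowest of the 9, between 0.73 and 1.55 FPKM with 86 to 186 counts. It was at 0.73 FPKM in the WT library and 0.78 and 0.79 FPKM in the KO pair of pluripotent culture, at 0.96 FPKM in the WT library and 1.17 and 1.55 FPKM in the KO pair of LIF withdrawal, and at 0.80 FPKM in the WT library and 1.01 and 0.99 FPKM in the KO pair of embryoid bodies. It rose after LIF withdrawal by 0.56 ± 0.20 (adjusted p = 0.0466), and the differences elsewhere were 0.23 ± 0.22 (adjusted p = 0.413) and 0.31 ± 0.21 (adjusted p = 0.279). The call was lost with DESeq2 (adjusted p = 0.35), limma on log2(FPKM + 1) (0.26, adjusted p = 0.238) and library totals as the scale (0.49, adjusted p = 0.0871). It was also lost without KO LIF withdrawal replicate 2 (0.36, adjusted p = 0.202), KO pluripotent replicate 1 or 2 (adjusted p = 0.0584 and 0.0585) or KO embryoid body replicate 1 or 2 (adjusted p = 0.074 and 0.0732).

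Tdg, the glycosylase that completes the oxidative route, held 40.5 to 157 counts, none of them whole, so its values are uncertain where reads were split with other copies. It was at 2.62 FPKM in the WT library and 1.57 and 1.23 FPKM in the KO pair of pluripotent culture, at 3.93 FPKM in the WT library and 4.49 and 2.85 FPKM in the KO pair of LIF withdrawal, and at 1.81 FPKM in the WT library and 2.19 and 2.64 FPKM in the KO pair of embryoid bodies. No neighbouring group means differed by more than the widest KO pair. The difference in pluripotent culture was -0.77 ± 0.31 (adjusted p = 0.0587). It passed the threshold with library totals (-0.89, adjusted p = 0.0313), with upper-quartile factors (-0.88), with a minimum of 2 FPKM (-0.81), and without KO LIF withdrawal replicate 1 (-0.76, adjusted p = 0.0236) or 2 (-0.77, adjusted p = 0.0213). After LIF withdrawal it was -0.03 ± 0.27 (adjusted p = 0.941) and in embryoid bodies 0.41 ± 0.32 (adjusted p = 0.343).

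**Figure D2:**
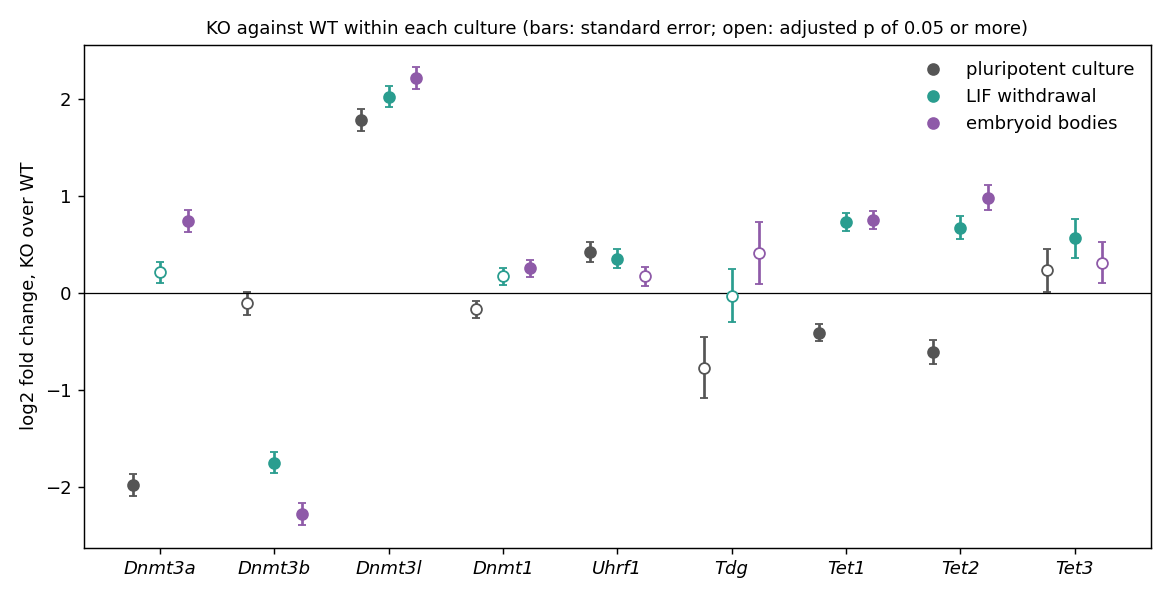
Log2 fold change of KO over WT (vertical axis) for the 9 genes (horizontal axis) in pluripotent culture (grey), after LIF withdrawal (green) and in embryoid bodies (purple). Bars are standard errors and open points have an adjusted p of 0.05 or more. Dnmt3l was higher by 1.78 to 2.21 in the 3 cultures. Dnmt3a was at -1.98 in pluripotent culture and at 0.21 and 0.74 in the other 2, and Dnmt3b went from -0.11 to -1.75 and -2.28.

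Proportions within the families followed these levels. Dnmt3b FPKM over Dnmt3a FPKM was 1.40 in WT pluripotent cells and 6.14 and 4.64 in KO. After LIF withdrawal it was 2.66 in WT and 0.760 and 0.617 in KO, and in embryoid bodies it was 8.16 in WT and 1.003 and 1.03 in KO. The ratio was thus higher in KO in pluripotent culture and lower in KO in the other conditions, with no overlap between KO and WT in any of the 3. The sum of Dnmt3a and Dnmt3b was 70.8 FPKM in the WT library and 43.4 and 41.6 FPKM in the KO pair of pluripotent culture. It was 177 FPKM in the WT library and 89.7 and 91.4 FPKM in the KO pair of LIF withdrawal, and 204 FPKM in the WT library and 69.7 and 81.3 FPKM in the KO pair of embryoid bodies. Dnmt3l over this sum was 2.87 in WT and 14.9 and 15.1 in KO in pluripotent culture, 0.814 in WT and 6.65 and 5.76 in KO after LIF withdrawal, and 0.631 in WT and 8.73 and 7.21 in KO in embryoid bodies. In KO the transcript of the cofactor therefore exceeded the summed transcripts of its catalytic partners in all 6 libraries, and in WT it did so in pluripotent culture. The summed level of the 3 Tet genes was 58.1 FPKM in the WT library and 36.2 and 40.6 FPKM in the KO pair of pluripotent culture, 32.0 FPKM in the WT library and 49.6 and 49.99 FPKM in the KO pair of LIF withdrawal, and 19.4 FPKM in the WT library and 34.97 and 33.7 FPKM in the KO pair of embryoid bodies. These ratios and sums are given as values with no test.

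**Figure D3:**
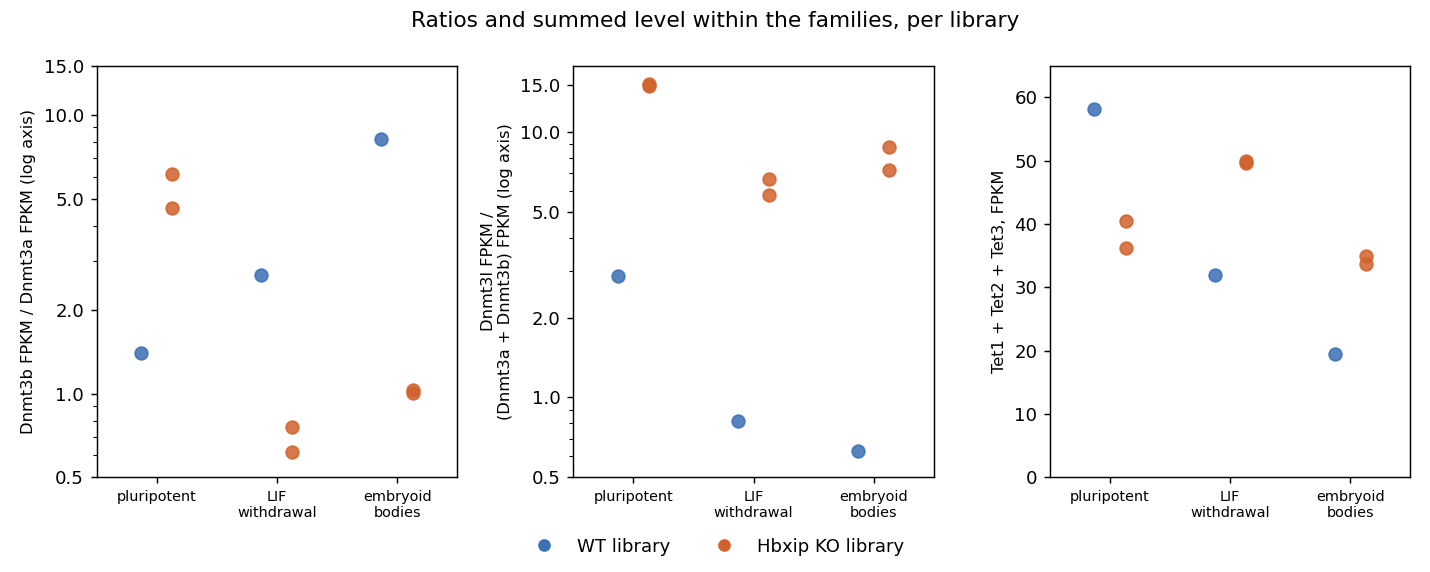
Ratios and a sum of FPKM values per library, with conditions on the horizontal axes, blue points for WT and orange for KO. The left and middle panels (log axes) show Dnmt3b over Dnmt3a and Dnmt3l over the sum of both, and the right panel the summed FPKM of Tet1, Tet2 and Tet3. Dnmt3l over Dnmt3a and Dnmt3b was 5.76 to 15.1 in KO and 0.631 to 2.87 in WT.

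Each genotype was next compared between cultures, which asks how the genes respond to differentiation. In WT, both forms of differentiation raised Dnmt3b and lowered Dnmt3l, Tet1 and Tet2. In KO, Dnmt3b did not pass the threshold in either form, and Dnmt3a rose by more than any other of the 9 genes. After LIF withdrawal 5 of the 9 passed in WT, 2 higher and 3 lower, against 20.5% of all genes (11.6% higher and 8.90% lower). In KO 7 passed, 6 higher and 1 lower, against 59.2% (30.2% higher and 29.0% lower). In embryoid bodies 7 passed in WT, 1 higher and 6 lower, against 38.6% (19.7% higher and 18.9% lower). There 6 passed in KO, 2 higher and 4 lower, against 61.0% (31.0% higher and 30.0% lower). The KO comparisons rest on 2 against 2 libraries and the WT comparisons on 1 against 1, so their shares of genes that passed cannot be set against each other. The comparisons of LIF withdrawal and of embryoid bodies share the pluripotent libraries.

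In WT after LIF withdrawal Dnmt3b rose by 1.66 ± 0.13 (adjusted p = 5.95e-06) and Dnmt3a by 0.74 ± 0.13 (adjusted p = 0.00149). Dnmt3l fell by 0.46 ± 0.12 (adjusted p = 0.0144), Tet1 by 0.82 ± 0.10 (adjusted p = 0.000176) and Tet2 by 0.91 ± 0.14 (adjusted p = 0.000705). Dnmt1, Uhrf1, Tet3 and Tdg were at 0.13, 0.08, 0.42 and 0.61 and did not pass. In WT embryoid bodies Dnmt3b rose by 2.15 ± 0.14 (adjusted p = 4.73e-07). Tet2 fell by 1.88 ± 0.15 (adjusted p = 2.12e-06), Tet1 by 1.43 ± 0.11 (adjusted p = 1.52e-06), Dnmt3l by 0.64 ± 0.12 (adjusted p = 0.00115) and Uhrf1 by 0.44 ± 0.11 (adjusted p = 0.00774). Dnmt3a fell by 0.39 ± 0.13 (adjusted p = 0.0312), a call lost with limma on log2(FPKM + 1) (adjusted p = 0.0998). Dnmt1 fell by 0.31 ± 0.10 (adjusted p = 0.0333), a call lost with DESeq2 (adjusted p = 0.066) and without KO embryoid body replicate 1 or 2 (adjusted p = 0.0515 and 0.0516), libraries that enter this comparison only through the spread. Dnmt3a was thus higher in WT after LIF withdrawal and lower in WT embryoid bodies than in pluripotent culture, while Dnmt3b was higher in both.

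In KO after LIF withdrawal Dnmt3a rose by 2.94 ± 0.10 (adjusted p = 1.09e-09), which is 7.67-fold. Tdg rose by 1.34 ± 0.25 (adjusted p = 0.000618), Tet3 by 0.75 ± 0.17 (adjusted p = 0.00193), Dnmt1 by 0.48 ± 0.07 (adjusted p = 0.000124) and Tet1 by 0.32 ± 0.07 (adjusted p = 0.00242), or 0.21 without KO LIF withdrawal replicate 1. Tet2 rose by 0.36 ± 0.10 (adjusted p = 0.00641), a call lost without KO pluripotent replicate 1 (0.23, adjusted p = 0.0969) or KO LIF withdrawal replicate 2 (0.28, adjusted p = 0.0599). Dnmt3l fell by 0.22 ± 0.08 (adjusted p = 0.0298), a call lost without KO pluripotent replicate 1 (-0.19, adjusted p = 0.13) or KO LIF withdrawal replicate 2 (-0.12, adjusted p = 0.256) and with limma on log2(FPKM + 1) (-0.19, adjusted p = 0.06). Dnmt3b and Uhrf1 were at 0.02 ± 0.10 (adjusted p = 0.877) and 0.00 (adjusted p = 0.993).

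In KO embryoid bodies Dnmt3a rose by 2.34 ± 0.10 (adjusted p = 4.75e-09), or 5.05-fold, and Dnmt3b was at -0.02 ± 0.10 (adjusted p = 0.855). Uhrf1 fell by 0.70 ± 0.08 (adjusted p = 1.13e-05) and Tet1 by 0.27 ± 0.07 (adjusted p = 0.00702), the latter lost with limma on log2(FPKM + 1) (-0.15, adjusted p = 0.101). Tet2 was at -0.30 ± 0.10 (adjusted p = 0.0206) and Dnmt3l at -0.20 ± 0.08 (adjusted p = 0.0404). Both calls were lost without KO embryoid body replicate 2 (-0.21, adjusted p = 0.182, and -0.18, adjusted p = 0.184), without KO pluripotent replicate 2 (-0.16, adjusted p = 0.226, and -0.25, adjusted p = 0.0501) and with library totals (-0.19 and -0.10). The Dnmt3l call was also lost without KO pluripotent replicate 1 (-0.18, adjusted p = 0.152) or KO embryoid body replicate 1 (-0.23, adjusted p = 0.0884). Tdg was at 0.67 ± 0.27 (adjusted p = 0.0461), a call lost with DESeq2 (adjusted p = 0.166) and without KO pluripotent replicate 1 (0.86, adjusted p = 0.0539) or 2 (0.49, adjusted p = 0.228), KO embryoid body replicate 1 (0.80, adjusted p = 0.0619) or 2 (0.52, adjusted p = 0.226) or the WT embryoid body library (0.65, adjusted p = 0.0502). Dnmt1 was at 0.12 (adjusted p = 0.174) and passed at 0.23 (adjusted p = 0.00757) with library totals, a scaling that puts the median of all genes at 0.11, and Tet3 was at 0.23 (adjusted p = 0.258).

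**Figure D4:**
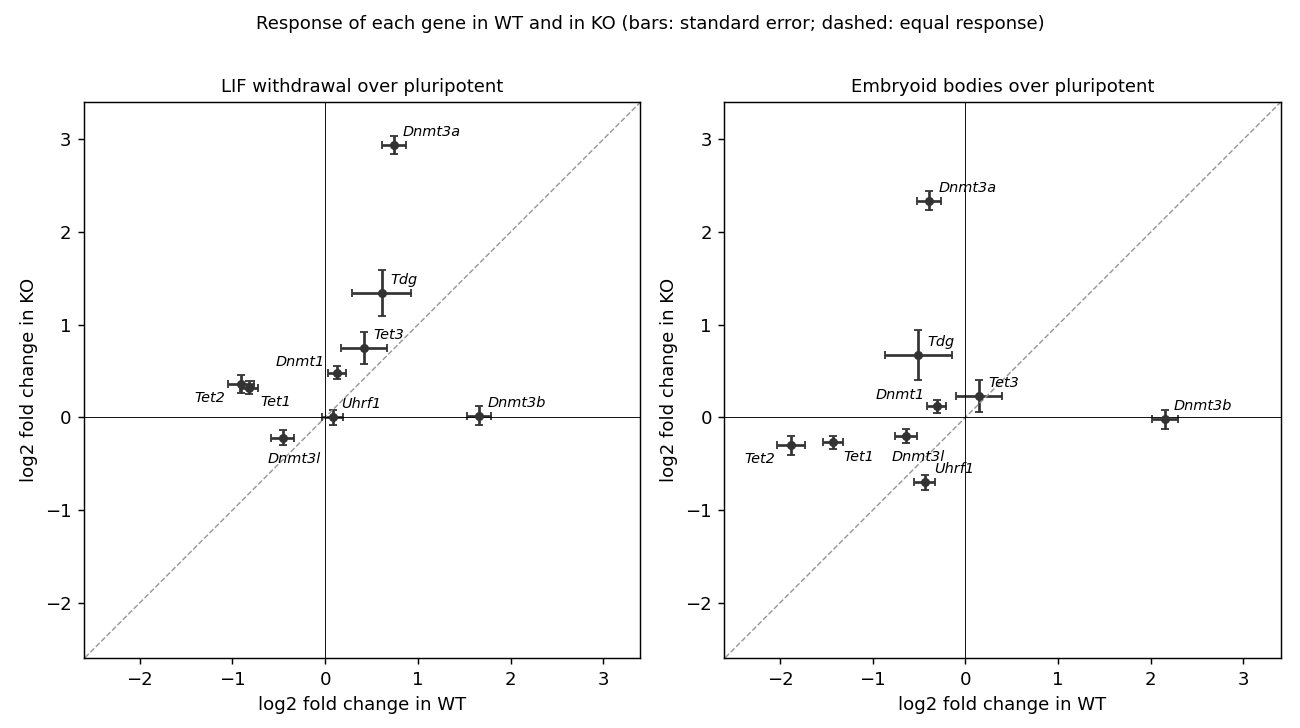
Log2 fold change from pluripotent culture in KO (vertical axes) against that in WT (horizontal axes), for LIF withdrawal (left) and embryoid bodies (right). Each point is 1 gene with standard errors, and the dashed line marks equal responses. Dnmt3a lies above the line, at 2.94 in KO against 0.74 in WT after LIF withdrawal, and Dnmt3b lies near 0 in KO against 1.66 and 2.15 in WT.

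The responses themselves were then compared between genotypes by an interaction contrast, KO minus WT. For LIF withdrawal 4 of the 9 genes passed, 3 higher and 1 lower in KO, against 32.3% of all genes (17.5% higher and 14.9% lower). The difference was 2.20 ± 0.16 (adjusted p = 4.05e-06) for Dnmt3a, -1.64 ± 0.16 (adjusted p = 3.2e-05) for Dnmt3b, 1.14 ± 0.13 (adjusted p = 6.29e-05) for Tet1 and 1.27 ± 0.17 (adjusted p = 0.000194) for Tet2. Dnmt1 was at 0.34 (adjusted p = 0.0542) and Dnmt3l at 0.24 (adjusted p = 0.205). The Dnmt1 difference passed with library totals (0.40, adjusted p = 0.0135) and without KO LIF withdrawal replicate 2 (0.40, adjusted p = 0.0369). For embryoid bodies 6 of the 9 passed, 5 higher and 1 lower, against 41.8% of all genes (22.4% higher and 19.5% lower). The difference was 2.72 ± 0.16 (adjusted p = 7.55e-07) for Dnmt3a, -2.17 ± 0.17 (adjusted p = 3.22e-06) for Dnmt3b, 1.16 ± 0.13 (adjusted p = 3.71e-05) for Tet1 and 1.58 ± 0.18 (adjusted p = 3.82e-05) for Tet2. For Dnmt1 it was 0.42 ± 0.13 (adjusted p = 0.0175), lost without KO embryoid body replicate 2 (0.38, adjusted p = 0.0648). For Dnmt3l it was 0.43 ± 0.14 (adjusted p = 0.0272), lost without KO pluripotent replicate 2 (0.39, adjusted p = 0.0672), KO embryoid body replicate 1 (0.41, adjusted p = 0.0737) or KO embryoid body replicate 2 (0.46, adjusted p = 0.051). Uhrf1, Tet3 and Tdg did not pass in either contrast, with differences of -0.08, 0.33 and 0.73 for LIF withdrawal and of -0.25, 0.08 and 1.17 (adjusted p = 0.0518 for Tdg) for embryoid bodies. The Tdg difference passed for LIF withdrawal without KO LIF withdrawal replicate 2 (1.04, adjusted p = 0.0392). For embryoid bodies it passed with library totals (1.30, adjusted p = 0.034) and without KO pluripotent replicate 1 (1.37, adjusted p = 0.0489), KO LIF withdrawal replicate 1 (1.16, adjusted p = 0.0208) or KO LIF withdrawal replicate 2 (1.17, adjusted p = 0.0186). Both contrasts share the 3 pluripotent libraries, and the larger part of the Dnmt3a difference stood in their values, 29.5 FPKM in WT against 6.07 and 7.38 FPKM in the KO pair.

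Averaged over the 3 conditions, 3 of the 9 genes passed, 2 higher and 1 lower, against 27.1% of all genes (13.3% higher and 13.8% lower). The error of this fit holds the spread of the genotype difference between conditions and the spread within KO pairs. Dnmt3l rose in KO by 2.0 ± 0.11 (adjusted p = 5.06e-05). Dnmt3b fell by 1.49 ± 0.32 (adjusted p = 0.00937), and by 1.34 (adjusted p = 0.0679) without the WT library after LIF withdrawal, where it did not pass. Uhrf1 rose by 0.31 ± 0.09 (adjusted p = 0.0267). That call was lost without KO pluripotent replicate 1 (0.29, adjusted p = 0.0593) or 2 (0.32, adjusted p = 0.0517), KO LIF withdrawal replicate 1 (0.29, adjusted p = 0.0699), KO embryoid body replicate 1 (0.31, adjusted p = 0.0663) or the WT library after LIF withdrawal (0.30, adjusted p = 0.101), and with upper-quartile factors (0.24, adjusted p = 0.0531). Dnmt3a, whose change differed in sign between cultures, was at -0.46 ± 0.44 (adjusted p = 0.481), and at 0.47 (adjusted p = 0.0103) without the WT pluripotent library. Tet1 and Tet2 were at 0.32 ± 0.21 (adjusted p = 0.285) and 0.29 ± 0.26 (adjusted p = 0.449), and at 0.74 (adjusted p = 2.63e-05) and 0.81 (adjusted p = 0.000189) without that library. Dnmt1 and Tet3 were at 0.08 ± 0.10 (adjusted p = 0.569) and 0.37 ± 0.14 (adjusted p = 0.0879), and they too passed without it, at 0.21 (adjusted p = 0.0335) and 0.44 (adjusted p = 0.0383). Tdg was at -0.14 ± 0.25 (adjusted p = 0.719).

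Some markers of cell states moved with several of these results, and others did not. Among the 10 pluripotency markers, Zfp42 was at 489, 175 and 214 FPKM in the WT libraries and at 350.1 and 374, 314 and 299, and 387 and 359 FPKM in the KO libraries of the 3 cultures. Klf4 was at 155, 21.1 and 17.3 FPKM in the WT libraries and at 85.6 and 90.5, 60.3 and 58.0, and 51.7 and 41.6 FPKM in the KO libraries. Both were thus below WT in KO pluripotent culture and above WT in the other cultures, as Tet1 and Tet2 were. Sox2 went the same way. Nanog and Lin28a were instead lower in KO than in WT in every culture, and Esrrb was higher in KO in every culture. For Pou5f1, Dppa5a, Utf1 and Sall4 the KO pair enclosed the WT value in at least 1 culture. Of the 10 pluripotency markers, 1 rose and 6 fell in KO in pluripotent culture, beside 25.5% of all genes higher and 26.3% lower. After LIF withdrawal 5 rose and 1 fell, beside 18.4% and 17.4%. In embryoid bodies 4 rose and 2 fell, beside 19.4% and 17.7%. The difference between responses passed for 6 of the 10 for LIF withdrawal, beside 17.5% of all genes higher and 14.9% lower. For embryoid bodies it passed for 5, beside 22.4% and 19.5%. All of these differences were higher in KO. The summed level of 5 formative or primed epiblast markers (Fgf5, Otx2, Pou3f1, Lef1 and Sox3) was 51.1, 177 and 318.8 FPKM in WT pluripotent culture, LIF withdrawal and embryoid bodies. In KO it was 13.0 to 16.2, 66.7 to 91.9 and 130.3 to 154 FPKM. This sum was lower in KO in each culture, as Dnmt3b was in the last 2, but unlike Dnmt3b it was higher in the other cultures than in pluripotent culture in KO as well. Most of it in KO was Otx2, at 50.3 and 75.2 FPKM after LIF withdrawal and at 113 and 130 FPKM in embryoid bodies. From pluripotent culture, 4 of the 5 markers rose in KO on LIF withdrawal and 5 in embryoid bodies, beside 30.2% and 31.0% of all genes. The 8 primitive streak and mesoderm markers summed to 6.98, 61.7 and 105 FPKM in WT, with 1, 6 and 8 of them at 1 FPKM or more. In KO they summed to 4.15 to 4.94, 12.0 to 15.5 and 16.0 to 16.3 FPKM, with 1 of 8 at 1 FPKM or more in each culture. Most of the KO sum was Eomes, at 2.58 and 3.01, 10.4 and 14.2, and 14.8 and 14.9 FPKM in the 3 cultures. Of the 7 markers tested, 1 rose and 1 fell in KO on LIF withdrawal, beside 30.2% and 29.0% of all genes. In KO embryoid bodies 1 rose and 2 fell, beside 31.0% and 30.0%. Gsc was listed at 0 in KO pluripotent culture and KO embryoid bodies, and Fgf8 in WT pluripotent culture. The 5 neuroectoderm markers summed to 132, 60.3 and 27.9 FPKM in the WT library and to 58.5 to 59.5, 56.4 to 60.3 and 41.8 to 50.7 FPKM in the KO libraries. Most of that sum was Tubb3, at 118 FPKM in WT pluripotent culture, while Nes was lower in KO than in WT in each culture and Sox1 higher. The 5 markers of 2-cell-like cells summed to 102, 106 and 180.3 FPKM in the WT library and to 7.33 to 12.6, 26.3 to 31.0 and 30.7 to 48.7 FPKM in the KO libraries. Primitive and visceral endoderm markers summed to 7.95 to 16.9 FPKM in the WT library and to 8.11 to 27.1 FPKM in the KO libraries, the highest in KO pluripotent culture. That sum was mostly Amn, at 1.78 FPKM in the WT library and 22.3 and 17.5 FPKM in the KO pair of pluripotent culture. There Sox7, Dab2 and Pdgfra were lower in both KO libraries, while Gata6, Gata4 and Sox17 were higher in both, at 1.86 FPKM or less. Of the 7 markers tested, 2 rose and 3 fell in KO in pluripotent culture, beside 25.5% and 26.3% of all genes. Their median difference was -0.71. Fibroblast and feeder markers summed to at most 38.9 FPKM, in WT pluripotent culture, where Thy1 was at 34.2 FPKM. Dcn and Lum were listed at 0 in WT pluripotent culture and WT embryoid bodies, and S100a4 in every KO group. Col1a1 was at 1.96, 2.05 and 5.81 FPKM in the WT libraries and between 0.18 and 1.52 FPKM in KO. Pdgfrb was instead higher in KO after LIF withdrawal and in embryoid bodies. Germ cell markers summed to between 23.4 and 32.7 FPKM. The part of these cell states in the results for the 9 genes was not tested.

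The genes whose levels over the 9 libraries were most like those of a member were found by Pearson's r of log2(FPKM + 1) among 11863 genes, for members with at least a 2-fold range of group means. These coefficients are a description, since the libraries share 6 groups. Closest to Dnmt3b was T, the brachyury gene of the primitive streak, at r = 0.993, followed by Sp5. T was at 17.5 and 24.03 FPKM in WT after LIF withdrawal and in WT embryoid bodies, and at 0.28 FPKM or less in the other 7 libraries. Closest to Dnmt3a were Abl2 (r = 0.996), Zfp638 and Xrn1. Abl2, a non-receptor tyrosine kinase, was at 3.70 and 4.17 FPKM in the KO pair of pluripotent culture and between 7.32 and 10.9 FPKM elsewhere. Closest to Dnmt3l were Manba (r = 0.992), Tmco4 and Ankrd45. Manba, which encodes lysosomal beta-mannosidase, was at 40.4, 19.3 and 19.4 FPKM in the WT library and between 105 and 139 FPKM in the KO libraries. Rarg, the retinoic acid receptor gamma gene, was among the 3 closest genes to both Tet1 (r = 0.982) and Tet2 (r = 0.977). Closest to Tdg was Ndst1, at r = 0.969. Among the members, Tet1 and Tet2 had r = 0.97, Dnmt1 and Tdg 0.93, and Dnmt3b and Dnmt3l -0.87.

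Genes that work beside these enzymes were described from 7 lists. Their counts stand beside 25.5% of all genes higher and 26.3% lower in pluripotent culture, and 13.3% higher and 13.8% lower over the 3 conditions. With library totals as the scale, the counts in pluripotent culture became 3 higher and 7 lower for the repressors and other chromatin regulators. They became 0 and 6 for the maintenance partners. Over the 3 conditions they became 2 and 4 for the S-adenosylmethionine cycle, 2 and 2 for base excision repair, 5 and 3 for the TET partners and 2 and 5 for the germline genes. Of 8 methyl-CpG readers, 1 rose and 2 fell in KO in pluripotent culture (median -0.20, beside -0.01 over all genes), and 0 rose and 2 fell over the 3 conditions (-0.04, beside -0.02). Zbtb33, which encodes the reader Kaiso, was at 4.64 FPKM in the WT library and 1.58 and 1.73 FPKM in the KO pair of pluripotent culture. It fell by 1.37 ± 0.16 there (adjusted p = 2.18e-05) and by 1.15 ± 0.11 over the 3 conditions (adjusted p = 0.000287). Mbd2 rose in pluripotent culture by 0.74 ± 0.14 (adjusted p = 0.000756), while Mbd4, a reader that is also a glycosylase, fell by 0.74 ± 0.13 (adjusted p = 0.000594).

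Of 8 partners of maintenance methylation, 1 rose and 5 fell in pluripotent culture (median -0.39), and 1 rose and 3 fell over the 3 conditions (0.00). Dppa3, whose product binds UHRF1 and opposes maintenance, was at 1.66, 2.13 and 9.35 FPKM in the WT libraries and between 0.25 and 0.58 FPKM in the KO libraries. It fell over the 3 conditions by 3.20 ± 0.47 (adjusted p = 0.0017). The value was -2.17 without the WT embryoid body library, the highest of the 9, and -1.68 with limma on log2(FPKM + 1). The KO levels lay close to 0, so the size of the fall is uncertain. Pclaf, a PCNA-binding factor, was at 49.8 FPKM in the WT library and 20.0 and 28.0 FPKM in the KO pair of pluripotent culture and fell by 0.93 ± 0.13 (adjusted p = 0.000118). Uhrf2, the paralog of Uhrf1, fell there by 0.63 ± 0.13 (adjusted p = 0.00143) and the remodeller Hells by 0.48 ± 0.08 (adjusted p = 0.000436). The DNA ligase Lig1 rose over the 3 conditions by 0.40 ± 0.08 (adjusted p = 0.00748).

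The next list held 15 repressors and other chromatin regulators linked to DNA methylation. Of these, 5 rose and 4 fell in pluripotent culture (median -0.10), shares near those of all genes. Over the 3 conditions 4 rose and 1 fell (0.05). Prdm14, which is known to repress Dnmt3b and Dnmt3l in naive cells, was at 14.2, 8.10 and 3.71 FPKM in WT pluripotent culture, LIF withdrawal and embryoid bodies. KO levels were 5.08 and 6.35 FPKM, 5.43 and 5.81 FPKM, and at 8.63 and 7.53 FPKM. It fell in KO pluripotent culture by 1.20 ± 0.16 (adjusted p = 5.8e-05), and over the 3 conditions it was at -0.30 ± 0.34 (adjusted p = 0.56). Zfp57, a factor that protects imprints, rose over the 3 conditions by 0.75 ± 0.12 (adjusted p = 0.00296). The histone methyltransferase gene Ehmt2 rose in pluripotent culture by 0.80 ± 0.09 (adjusted p = 1.48e-05) and the remodeller Atrx by 0.65 ± 0.09 (adjusted p = 8.45e-05).

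Of 12 base excision repair genes, 1 rose and 4 fell in pluripotent culture (median 0.08), and 3 rose and 1 fell over the 3 conditions (0.06). Apex1, the abasic site endonuclease that acts after TDG, rose in pluripotent culture by 0.68 ± 0.11 (adjusted p = 0.00022), while Lig3 fell by 0.60 ± 0.09 (adjusted p = 0.000136) and its scaffold Xrcc1 by 0.50 ± 0.11 (adjusted p = 0.00268). Of 14 TET partners and genes of cofactor supply that could be tested, out of 15, 5 rose and 5 fell in pluripotent culture (median 0.18), and 6 rose and 2 fell over the 3 conditions (-0.09). Idh2, the mitochondrial enzyme that makes 2-oxoglutarate from isocitrate, was at 39.9, 47.7 and 72.0 FPKM in the WT libraries. The KO pairs stood at 198 and 180 FPKM, at 144 and 146 FPKM, and at 205 and 208 FPKM, above WT in every library. It rose in pluripotent culture by 2.37 ± 0.10 (adjusted p = 2.1e-08) and over the 3 conditions by 1.83 ± 0.16 (adjusted p = 0.000175). Glud1, which makes 2-oxoglutarate from glutamate, rose in pluripotent culture by 1.03 ± 0.10 (adjusted p = 7.11e-06), and Idh1, the cytosolic form, by 0.98 ± 0.09 (adjusted p = 3.81e-06).

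Of 15 tested genes, out of 16, of the S-adenosylmethionine cycle, which supplies the methyl donor, 2 rose and 8 fell in pluripotent culture (median -0.32), and 4 rose and 4 fell over the 3 conditions (0.06). Adk, the adenosine kinase that clears a product of the cycle, was at 19.7, 37.6 and 71.8 FPKM in the WT libraries. The KO values were 9.83 and 11.04 FPKM, 18.2 and 18.4 FPKM, and at 30.8 and 31.6 FPKM. It fell over the 3 conditions by 1.01 ± 0.09 (adjusted p = 0.000231), and Ahcy, which hydrolyses S-adenosylhomocysteine, by 1.02 ± 0.18 (adjusted p = 0.00377). Tdh, the threonine dehydrogenase of mouse embryonic stem cells, rose in pluripotent culture by 0.81 ± 0.11 (adjusted p = 5.43e-05), and Shmt1 fell by 0.75 ± 0.08 (adjusted p = 1.73e-05).

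Germline genes that are known to be kept silent in somatic cells by promoter methylation were the last list, with 15 of 16 genes tested. In KO pluripotent culture 1 rose and 9 fell (median -0.95), and over the 3 conditions 4 rose and 5 fell (-0.44). From pluripotent culture to LIF withdrawal 10 rose and 0 fell in KO (median 1.09), beside 30.2% of all genes higher and 29.0% lower. In WT 3 rose and 2 fell (0.04), beside 11.6% and 8.90%. To embryoid bodies 10 rose and 1 fell in KO (0.76), beside 31.0% and 30.0% of all genes. In WT 2 rose and 6 fell (-0.33), beside 19.7% and 18.9%. By the test of the difference, the responses differed between genotypes for 7 genes after LIF withdrawal (17.5% of all genes higher and 14.9% lower) and for 10 in embryoid bodies (22.4% and 19.5%), all of them higher in KO, with the pluripotent libraries shared by both contrasts. The markers of 2-cell-like cells were also lowest in the KO pluripotent libraries, and their part was not tested. Tex11, a meiotic crossover gene, was at 7.55 FPKM in the WT library and 0.52 and 0.66 FPKM in the KO pair of pluripotent culture. It was at 4.37 FPKM in the WT library and 2.68 and 3.5 FPKM in the KO pair of LIF withdrawal, and at 1.78 FPKM in the WT library and 2.5 and 2.36 FPKM in the KO pair of embryoid bodies. It fell in KO pluripotent culture by 3.56 ± 0.23 (adjusted p = 2.51e-07), as did Sycp3, a protein of the meiotic chromosome axis, by 2.37 ± 0.22 (adjusted p = 4.09e-06) and the RNA helicase gene Ddx4 by 2.05 ± 0.17 (adjusted p = 1.75e-06). Hormad1, another axis gene, was at 10.4, 5.84 and 1.89 FPKM in the WT libraries and at 14.6 and 17.7, 19.2 and 20.4, and 7.09 and 6.39 FPKM in the KO libraries. It rose over the 3 conditions by 1.43 ± 0.21 (adjusted p = 0.0017). DNA methylation was not measured in these libraries.

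**Figure D5:**
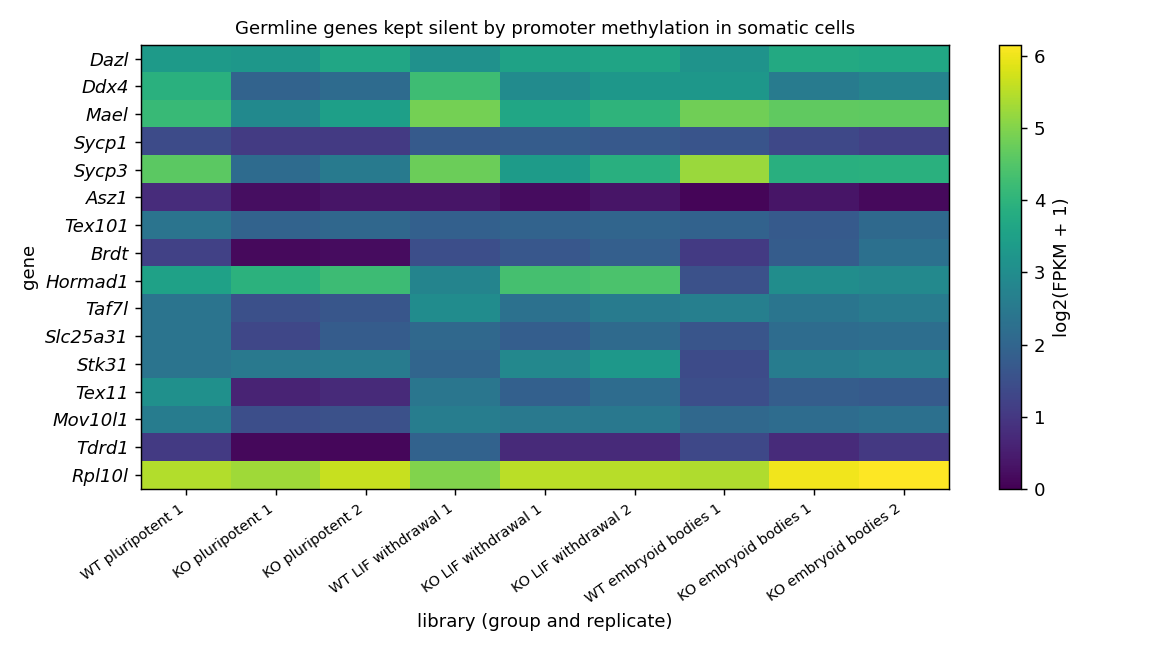
Heat map of log2(FPKM + 1) (colour) for the 16 germline genes (rows) in the 9 libraries (columns). Tex11, Sycp3 and Ddx4 are darkest in the 2 KO pluripotent libraries, while Hormad1 is brighter in KO than in WT of the same culture.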

How the data were processed

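RNA-seq was made from 9 libraries, 1 WT and 2 KO in each of 3 conditions, with groups taken from the labels. Per the labels' protocols, RNA was extracted with a Qiagen kit and prepared with Illumina protocols. Bowtie2 and build mm8 are named in the submitters' processing notes. Which quantifier, strand setting and annotation were used is not given in the sources used here. Per the file headers, each table gives for every listed gene an expected count, an FPKM value (scaled by the authors for gene length and library size) and its length. Between 78.0% and 78.4% of a library's deposited expected counts were whole to within 0.005. Coordinates of the upstream windows are those of GRCm38.p6 and were not used with the files' build. Of 20287 gene IDs, 20234 were matched by gene ID and 2 by accession, and 51 kept their ID.

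Expected counts were rounded and unlisted genes set to 0. The 13990 genes with a mean of at least 0.5 FPKM were tested with edgeR 4.0.16 (R 4.3.3), its quasi-likelihood test and TMM factors. The fit had a mean for each of 6 groups, with 3 residual degrees of freedom, all from KO pairs, and a biological coefficient of variation of 6.52%. KO against WT over the 3 conditions used an additive model (condition plus genotype, 5 residual degrees of freedom). Its p-values pool the spread of the genotype difference between conditions with the smaller spread within pairs. A gene was called at a Benjamini-Hochberg adjusted p below 0.05. Standard errors were derived as the absolute log2 change divided by the root of the F statistic. Libraries of each KO pair differed beyond counting noise (chi-square per degree of freedom 2.88 to 4.37). The fit was tested on simulated data in which every library was given the same spread. That run could therefore not check whether WT libraries vary like the KO pairs. Alternatives were DESeq2 1.42.0, limma 3.58.1 on log2(FPKM + 1) or log2(FPKM + 0.1), other scalings and filters, each library left out and a replicate block.

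Named genes were the 9 members, from each of the 7 other lists up to 3 genes with the smallest p in each of KO against WT in pluripotent culture and over the 3 conditions, and the 3 genes most like a member. A selection of these is printed. The members and lists were chosen with earlier results of these data known.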

Additional observations from a re-analysis of the deposited data

Results flagged for a closer look

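For 4 genes the change on LIF withdrawal differed between KO and WT by the test of the difference itself. Dnmt3a rose by 2.20 log2 units more in KO than in WT, Tet1 by 1.14 and Tet2 by 1.27, while the Dnmt3b change was lower in KO, at -1.64. For embryoid bodies the test of the difference passed for 6 genes, with KO minus WT at 2.72 for Dnmt3a, -2.17 for Dnmt3b, 1.16 for Tet1, 1.58 for Tet2, 0.42 for Dnmt1 and 0.43 for Dnmt3l. Tet1 and Tet2 after LIF withdrawal went in opposite directions, up in KO and down in WT. Dnmt3a did so in embryoid bodies, up in KO and down in WT. No group holds the 4 samples that a check for a single outlying library needs.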

How the results depend on the processing

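Each of the 90 values of the 9 genes was recomputed under the alternatives, 1367 times in all. The direction and the side of the threshold held in 1251 of these, a call was lost in 64, gained in 32, and the sign turned in 20. The fall of Dnmt3a in KO pluripotent culture, the falls of Dnmt3b in KO after LIF withdrawal and in KO embryoid bodies, the rises of Dnmt3l in all 3 cultures, and the KO to WT differences of Tet1 and Tet2 within each culture held under every alternative run. DESeq2 called more genes over the 3 conditions, 4214 (3787 with edgeR), and fewer in the other comparisons: 4796 in pluripotent culture (7248 with edgeR), 2843 after LIF withdrawal (5010), 2876 in embryoid bodies (5202), 1213 for LIF withdrawal in WT (2866), 2907 for embryoid bodies in WT (5398), 6053 and 6225 for the same responses in KO (8280 and 8535), and 2310 and 3253 for the differences between responses (4524 and 5854); the cause was not tested. Leaving out 1 library gave 1 to 8 members over the 3 conditions, 1 without the WT library of LIF withdrawal and 8 without the WT pluripotent library, and 2544 to 5895 of all genes (3787 with all libraries). For embryoid bodies in KO it gave 3 to 6 members, and limma on log2(FPKM + 1) gave 3 (6 in the report). Sign changes were of values that had not passed the threshold in the main fit. Of these, Dnmt3a over the 3 conditions passed with the opposite sign, at 0.47, without the WT pluripotent library, and was counted as a sign change. KO minus WT for Tdg after LIF withdrawal was 0.00 with no filter and from -0.42 to 0.28 with 1 library left out. Over the 3 conditions, with 1 library left out, Dnmt3a ran from -1.0 to 0.47, Tet2 from -0.01 to 0.81 and Tdg from -0.38 to 0.16. Aire in pluripotent culture ran from -0.08 to 0.78. For LIF withdrawal in KO, Dnmt3b ran from -0.09 to 0.11, and Uhrf1 from -0.09 to 0.07, with -0.01 with no filter, -0.01 with the replicate block and -0.01 in the KO libraries alone. For embryoid bodies in KO, Dnmt3b was at 0.09 with library totals, 0.03 with upper-quartile factors, 0.02 with at least 2 FPKM, 0.08 with limma on log2(FPKM + 1), 0.09 on log2(FPKM + 0.1), and from -0.15 to 0.09 with 1 library left out. Library totals put the median of all genes between -0.13 and 0.16 (between -0.02 and 0.04 with TMM). They changed the split of calls in pluripotent culture from 3574 higher and 3674 lower to 2830 and 4515, and that of the difference in embryoid bodies from 3127 and 2727 to 3755 and 2132. Upper-quartile factors changed the split over the 3 conditions from 1858 and 1929 to 1523 and 2427. The KO libraries share only numbers 1 and 2, with deviations correlated at 0.245, 0.0614 and 0.0994. With the replicate number as a block, in the KO libraries alone, 7 members passed for LIF withdrawal and 6 for embryoid bodies, as without it, and all genes called were 8773 and 9024. Without the block these libraries alone, a setting chosen after seeing the data, gave 8297 and 8553, and all libraries 8280 and 8535. With 1 WT library per condition, no WT spread could be had, and Tet3 and Tdg rest on at most 186 counts a library.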
